A study of Homo sapiens with 9 samples.

Results

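The mitotic G2/M genes are 36 genes that act between G2 and the end of cell division, from the kinase gene *CDK1* and its cyclins to genes of the kinetochore, the spindle and cytokinesis, with the checkpoint gene *CHFR* beside them. They were chosen by name, with no threshold on their values, and were found through their Ensembl identifiers among the 60660 genes of the count matrix. All 36 were present as 1 row each, and all 36 were among the 17794 genes that passed the filter on low counts. RNA-seq was done on OVCAR3, an established cell line from high-grade serous ovarian carcinoma, in 3 groups of 3 biological replicates, each pooled from 3 technical replicates. Control cells received a plasmid with *LacZ*, and CTCFL-OE cells received a plasmid with the open reading frame of *CTCFL* (also called *BORIS*), a paralog of *CTCF* that is normally active in the male germline. Both transfections were transient, used 2 µg of plasmid and ended 48 h later. In CTCFL-KD cells *CTCFL* was decreased with siRNAs, in knockdown experiments that had been run earlier. Control and CTCFL-OE cells thus received a plasmid and CTCFL-KD cells siRNAs. In the comparisons of CTCFL-KD with Control and with CTCFL-OE, the difference in *CTCFL* and the handling of the cells therefore cannot be told apart. The comparisons of CTCFL-OE and CTCFL-KD with Control share the 3 Control libraries.

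A cell enters mitosis when cyclins A and B have activated the kinase CDK1, which the phosphatase CDC25C releases from inhibition and the kinase PLK1 promotes. Kinetochores then attach the chromosomes to the spindle, and the spindle assembly checkpoint holds back the anaphase-promoting complex (APC/C) with its activator CDC20 until all are attached. The APC/C then marks securin and cyclin B for destruction, the sister chromatids separate and the cell divides. Transcripts of these genes accumulate in G2 and mitosis under FOXM1 and the MuvB complex, and their summed level is widely read as a sign of proliferation in carcinoma cells. In bulk RNA, fewer cells in G2 and mitosis and less RNA of these genes in each cell cannot be told apart.

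The libraries held between 14332622 and 24490080 counts. The counts of *CTCFL* followed the labels, with 6, 9 and 10 under Control, 36, 34 and 72 under CTCFL-OE and 0, 1 and 0 under CTCFL-KD. The mitochondrial share of a library's counts ran from 6.16% to 6.52% under Control, from 7.40% to 14.9% under CTCFL-OE and from 7.80% to 11.8% under CTCFL-KD, so that the treated libraries were all above the Control libraries, and the part of this in the results below was not tested. All 8 markers of ovarian carcinoma passed the filter, with a summed level of at least 4321 CPM in every library, where CPM is the count per 1000000 counts of the TMM-scaled library size. The 10 fibroblast markers summed to between 24.99 and 44.2 CPM and the 6 leukocyte markers to between 0.60 and 0.97 CPM under Control, 0.87 and 1.84 under CTCFL-OE and 2.96 and 4.69 under CTCFL-KD, with *CD3E* at 1 count or 0 in every library. In CTCFL-KD, where 21.4% of all genes rose and 16.8% fell, 5 of the 8 ovarian carcinoma markers rose and 2 fell (6 and 2 without replicate 1 of CTCFL-KD), and among the other markers that could be tested 2 fibroblast genes of 4 (*COL1A2*, at 0 counts in every Control library and at 156, 239 and 247 with CTCFL-KD, and *POSTN*) and the leukocyte gene *CD14* rose. The part of these markers in the results was not tested. The summed leukocyte markers were thus higher in every CTCFL-KD library than in every other library. Replicate 1 of CTCFL-KD stood apart from replicates 2 and 3, with a trend by transcript length among the mitotic genes that is given below. Counts over the mitotic genes and over the lists of other cell-cycle genes are therefore also given without this library.

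In CTCFL-KD most of the mitotic program was at a lower level than in Control, and *CHFR* was the exception. Of the 36 genes, 23 fell, 1 rose and 12 did not pass an adjusted p of 0.05 in the Benjamini-Hochberg-adjusted quasi-likelihood test of edgeR. Among all genes tested, 16.8% fell, 21.4% rose and 38.2% changed in either direction. The median log2 fold change of the 36 genes was -0.79, against 0.08 for all genes tested, and 34 of the 36 had a log2 fold change below 0, against 46.3% of all genes. Of the falling genes, 11 were past a log2 fold change of -1, a size of fall reached with an adjusted p under 0.05 by 7.94% of all genes. For 26 genes the 3 CTCFL-KD libraries lay below all 3 Control libraries and for 1 gene above, where 27.6% and 28.7% of all genes did so. The CPM of the 36 genes summed to 3960, 4192 and 4119 under Control, to 4711, 4205 and 4250 under CTCFL-OE and to 2460, 2760 and 2497 under CTCFL-KD. Every CTCFL-KD library was thus below every other library, and the order of CTCFL-OE and Control depended on *MKI67* in replicates 2 and 3 of CTCFL-OE and on the scaling in replicate 3. Without *MKI67* the sums of replicates 2 and 3 of CTCFL-OE were 3632.5 and 3687 CPM, against 3654 to 3789 in Control, and as a share of unscaled counts the 36 genes made up 0.401% of replicate 3 of CTCFL-OE, below the lowest Control library (0.416%). Without replicate 1 of CTCFL-KD 28 genes fell and 1 rose, while 23.7% of all genes fell and 49.9% changed in either direction, and the calls gained were those of *CCNB2*, *MAD2L1*, *UBE2C*, *PTTG1* and *AURKB*.

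**Figure D1:**
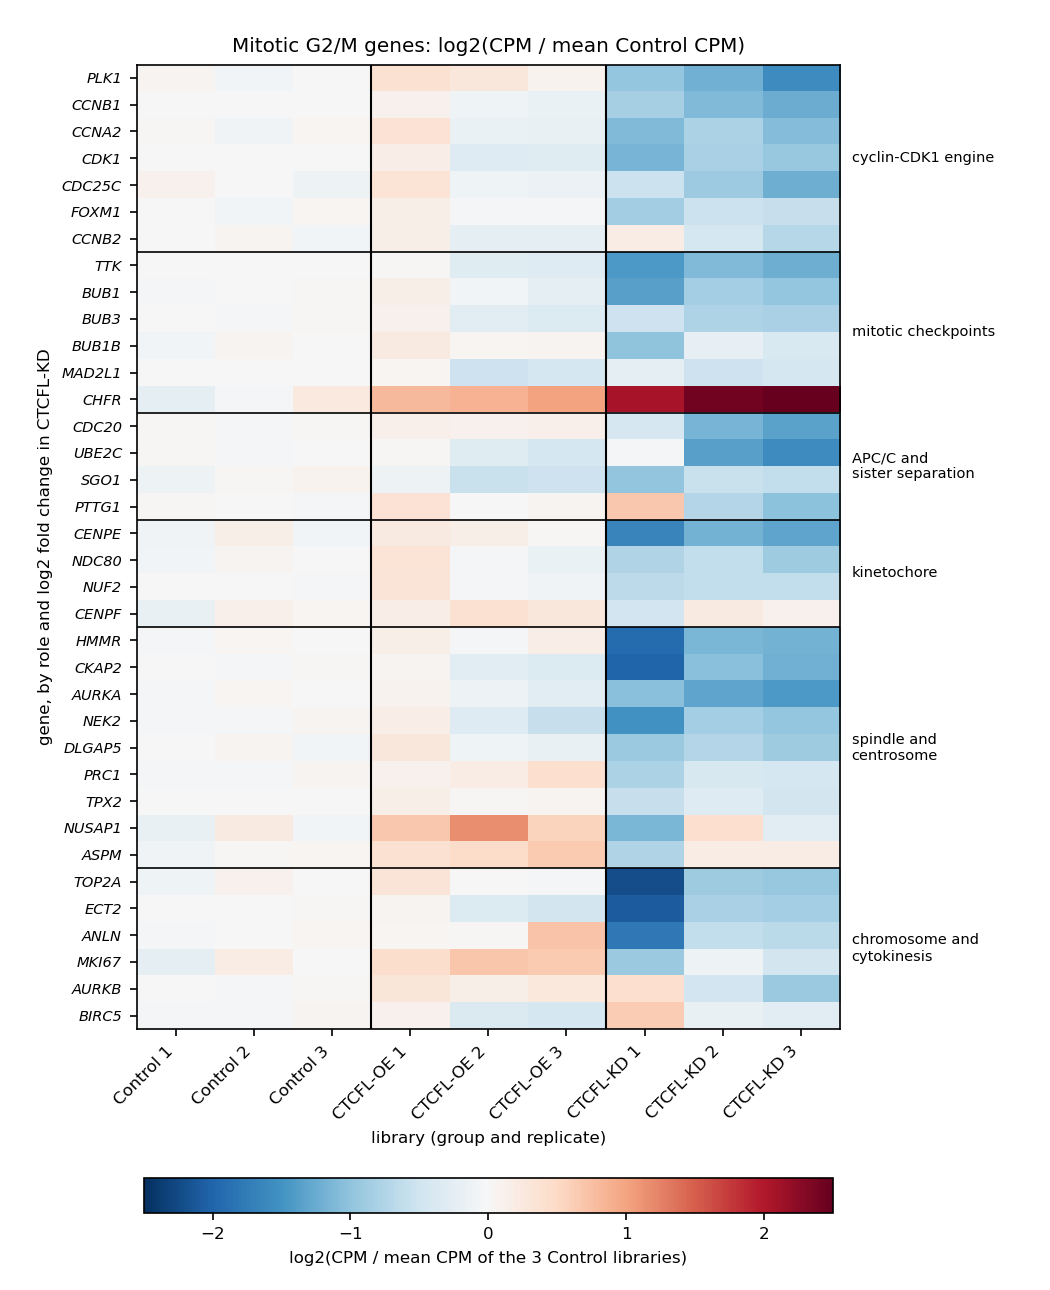
Heat map of the 36 mitotic genes (rows, by role) in the 9 libraries (columns). The colour is log2 of the CPM over the mean CPM of the 3 Control libraries. The CTCFL-KD columns are mostly blue (a member median of -0.89, -0.74 and -0.89 in replicates 1 to 3), *CHFR* is red in CTCFL-OE and CTCFL-KD, and replicate 1 of CTCFL-KD differs from the other two in short genes such as *PTTG1* and long genes such as *TOP2A*.

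Promoters of many mitotic genes carry a CHR element, bound by the MuvB complex, and CCAAT boxes, bound by NF-Y. To show what the promoters of genes that moved together share, 1 falling gene of each role is printed, the one with the lowest log2 fold change among those with a RefSeq window and a stretch of at least 100 bases outside annotated UTRs within the 150 bases before the start, and *CHFR* is printed as the gene that rose. The kinetochore genes gave no such stretch, *BUB1* stands in place of *TTK*, which had no window, and *CKAP2* in place of *HMMR*, which gave no stretch. Sequences and positions are from RefSeq on GRCh38.p14, each is written 5′ to 3′ along the gene and ends at or shortly before the start, and capitals mark TTTGAA (CHR) and CCAAT or their reverse complements.
PLK1: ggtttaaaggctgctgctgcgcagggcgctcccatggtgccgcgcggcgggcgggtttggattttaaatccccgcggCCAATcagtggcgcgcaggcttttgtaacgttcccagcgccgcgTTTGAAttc
BUB1: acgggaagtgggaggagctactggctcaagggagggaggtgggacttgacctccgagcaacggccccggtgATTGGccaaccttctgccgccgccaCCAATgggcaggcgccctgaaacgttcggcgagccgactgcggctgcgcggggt
CDC20: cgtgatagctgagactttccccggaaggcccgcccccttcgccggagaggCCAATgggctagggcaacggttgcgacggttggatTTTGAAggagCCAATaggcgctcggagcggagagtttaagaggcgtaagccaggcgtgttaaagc
CKAP2: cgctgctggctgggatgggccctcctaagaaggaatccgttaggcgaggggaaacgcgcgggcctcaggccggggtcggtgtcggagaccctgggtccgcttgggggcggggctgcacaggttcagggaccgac
TOP2A: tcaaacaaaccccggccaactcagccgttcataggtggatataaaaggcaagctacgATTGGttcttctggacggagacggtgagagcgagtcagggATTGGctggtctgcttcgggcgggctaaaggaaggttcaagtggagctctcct
CHFR: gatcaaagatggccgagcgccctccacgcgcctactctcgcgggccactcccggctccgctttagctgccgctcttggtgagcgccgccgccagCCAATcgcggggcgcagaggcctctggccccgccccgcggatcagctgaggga
These stretches lie at chr16:23678739-23678868, plus strand, at chr2:110678064-110678213, minus strand, at chr1:43358831-43358980, plus strand, at chr13:52455838-52455971, plus strand, at chr17:40417897-40418046, minus strand and at chr12:132887609-132887755, minus strand. The *PLK1* stretch lies in an exon of an overlapping transcript on GENCODE 44, 9 bases of the *BUB1* stretch are in an exon, and the other stretches are outside exons. The stretches of *PLK1* and *CDC20* show both elements, those of *BUB1*, *TOP2A* and *CHFR* CCAAT alone, and that of *CKAP2* neither. The printed stretch of *TOP2A* leaves out 2 matches to the CHR letters that begin further from the start, so that its whole window held both elements. The window of *HMMR*, not printed, held 2 matches to the CHR letters and 5 to CCAAT.

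RefSeq windows of 250 bases before to 50 bases after the start were at hand for 29 of the 36 genes. The genes with no window were *AURKA*, *BIRC5*, *TPX2*, *TTK*, *UBE2C*, *FOXM1* and *BUB3*. TTTGAA was found on either strand in 18 of the 29 windows (62.1%), against 15.4% of 27305 genes, and CCAAT in 22 (75.9%), against 35.7%. Both were found in 14 windows (48.3%), against 6.08% of all genes. AGGGGGC, the core of the motif that CTCF and CTCFL are known to share, was found in 3 windows (10.3%), against 14.1% of all genes. Matches can overlap: CCAAT and its reverse complement ATTGG can share 2 bases, as in 2 of the 5 CCAAT matches of *HMMR*. Of the 18 windows of genes that fell in CTCFL-KD, 10 held TTTGAA and 12 CCAAT, and of the 10 windows of genes that did not pass the test 8 held TTTGAA and 9 CCAAT. The motif letters were thus found in both sets, and a match is a description of the letters and not a bound site.

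The counts by role that follow stand against the 16.8% of all genes that fell in CTCFL-KD. Of the 7 genes that drive mitotic entry, 6 fell, and their median log2 fold change was -0.96. *PLK1*, the kinase that promotes mitotic entry and acts at centrosomes and kinetochores, had 75.1, 67.8 and 71.5 CPM in the Control libraries, 92.8, 86.9 and 76.3 with CTCFL-OE and 36.4, 31.3 and 23.99 with CTCFL-KD. *CCNB1*, which encodes cyclin B1, the partner of CDK1 at mitotic entry, had 241, 244 and 243 CPM in the Control libraries, 263, 224 and 217 with CTCFL-OE and 137, 114 and 103 with CTCFL-KD. In both genes all CTCFL-KD libraries lay far below the other 6, with log2 fold changes against Control of -1.23 (SE 0.19) and -1.04 (SE 0.18) and adjusted p-values of 0.000582 and 0.00115 from the Benjamini-Hochberg-adjusted quasi-likelihood test of edgeR. *CCNA2*, the gene of cyclin A2, had 107, 97.5 and 108 CPM in the Control libraries, 134, 93.1 and 91.3 with CTCFL-OE and 48.2, 60.2 and 49.1 with CTCFL-KD. *CDK1* itself had 162, 159.5 and 159 CPM in the Control libraries, 181, 128 and 129.5 with CTCFL-OE and 71.4, 91.6 and 83.5 with CTCFL-KD. The levels of *CDK1* in CTCFL-KD were 1.95-fold lower than in Control and those of *CCNA2* 1.98-fold lower. *CDC25C*, the phosphatase that activates CDK1, had 17.5, 16.4 and 14.9 CPM in the Control libraries, 20.7, 15.1 and 14.6 with CTCFL-OE and 11.2, 8.62 and 6.96 with CTCFL-KD. *FOXM1*, the transcription factor of the G2/M program, had 98.2, 92.9 and 101 CPM in the Control libraries, 107, 95.1 and 93.6 with CTCFL-OE and 53.2, 67.5 and 65.7 with CTCFL-KD. Both separated CTCFL-KD from all other libraries, and the fall of *FOXM1* was the smallest of the 6, with a log2 fold change of -0.65. *CCNB2*, the gene of cyclin B2, had 94.3, 99.98 and 90.8 CPM in the Control libraries, 105, 81.8 and 80.7 with CTCFL-OE and 108, 70.0 and 57.6 with CTCFL-KD. Its replicate 1 in CTCFL-KD was above all Control libraries and the other two below them, its log2 fold change of -0.28 did not pass (adjusted p 0.365), and without that library it was -0.57 with an adjusted p of 0.00738, both from the Benjamini-Hochberg-adjusted quasi-likelihood test of edgeR.

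Among the checkpoint genes, 3 of the 6 fell in CTCFL-KD (against 16.8% of all genes) and *CHFR* rose. *TTK*, which encodes the kinase MPS1 that starts the spindle assembly checkpoint, had 65.2, 66.6 and 65.7 CPM in the Control libraries, 67.5, 53.4 and 52.7 with CTCFL-OE and 24.4, 30.4 and 28.3 with CTCFL-KD. *BUB1*, a checkpoint kinase at the kinetochore, had 101, 103 and 104 CPM in the Control libraries, 113, 97.5 and 86.6 with CTCFL-OE and 40.3, 57.0 and 52.6 with CTCFL-KD. All their CTCFL-KD libraries lay far below the other 6, and the log2 fold changes were -1.25 (SE 0.17) and -1.04 (SE 0.18), with adjusted p-values of 0.000304 and 0.00139 from the Benjamini-Hochberg-adjusted quasi-likelihood test of edgeR. *BUB3*, the partner that brings BUB1 and BUBR1 to kinetochores, had 161, 155 and 163 CPM in the Control libraries, 171, 134 and 126 with CTCFL-OE and 112, 93.1 and 91.1 with CTCFL-KD. With an offset for transcript length and GC content the call of *BUB3* was lost, with an adjusted p of 0.207, and 0.0643 with the replicate block added, from the Benjamini-Hochberg-adjusted quasi-likelihood test of edgeR. *BUB1B* (BUBR1) and *MAD2L1* (MAD2), both inhibitors of the APC/C in the checkpoint complex, had log2 fold changes of -0.49 and -0.40 in CTCFL-KD and did not pass, although all their CTCFL-KD libraries lay below Control. *BUB1B* passed without replicate 2 of CTCFL-KD (adjusted p 0.0478), and *MAD2L1* passed without replicate 1 of CTCFL-KD (0.0264) or of CTCFL-OE (0.0443), all by the Benjamini-Hochberg-adjusted quasi-likelihood test of edgeR.

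*CHFR* (ENSG00000072609.18; chr12:132822187-132956304, minus strand, GRCh38) encodes a ubiquitin ligase that delays entry into mitosis when the spindle is disturbed, and its silencing by promoter methylation is known in several tumour types. It had 3.76, 4.31 and 5.22 CPM in the Control libraries, 7.80, 8.10 and 8.85 with CTCFL-OE and 18.5, 23.6 and 24.98 with CTCFL-KD, which were 75, 111 and 103 counts in the Control libraries. The groups did not overlap: all CTCFL-OE libraries were above Control, and all CTCFL-KD libraries above CTCFL-OE. In CTCFL-KD the level was 5.05-fold that of Control, with a log2 fold change of 2.34 (SE 0.20) and an adjusted p of 1.46e-05 from the Benjamini-Hochberg-adjusted quasi-likelihood test of edgeR, and the call held under all 19 alternatives. In CTCFL-OE the log2 fold change was 0.90 (SE 0.20), with an adjusted p of 0.0561 from the same test against a threshold of 0.1, and the change was short of a log2 fold change of 1. This call in CTCFL-OE was lost without Control replicate 1, 2 or 3 or CTCFL-OE replicate 2 or 3, with adjusted p-values of 0.289, 0.254, 0.197, 0.208 and 0.192 by the Benjamini-Hochberg-adjusted quasi-likelihood test of edgeR, while its log2 fold change stayed between 0.74 and 1.02 under all alternatives. The direct comparison of CTCFL-KD with CTCFL-OE gave a log2 fold change of 1.44 (SE 0.19), with an adjusted p of 0.000351 from the Benjamini-Hochberg-adjusted quasi-likelihood test of edgeR. Per kilobase of exonic sequence, *CHFR* was at 0.259 CPM in Control and 1.31 in CTCFL-KD, and in Control only *NUSAP1* was lower per kilobase among the 36 genes.

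**Figure D2:**
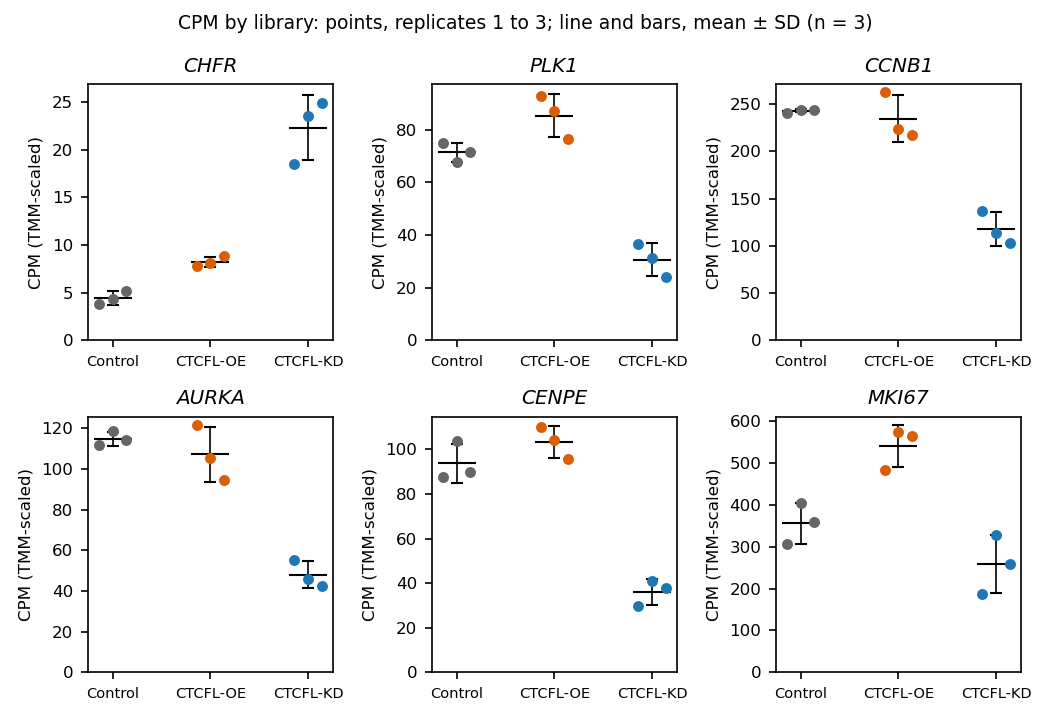
CPM (TMM-scaled, linear axes from 0) of 6 mitotic genes in each library, as points for replicates 1 to 3, with the mean ± SD of 3 libraries as a line and bars. *CHFR* steps up from Control to CTCFL-OE to CTCFL-KD with no overlap, *PLK1*, *CCNB1*, *AURKA* and *CENPE* are lower in CTCFL-KD than in both other groups, and *MKI67* is highest in CTCFL-OE and overlaps between Control and CTCFL-KD.

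Of the 4 genes of the APC/C and of sister chromatid separation 2 fell in CTCFL-KD (against 16.8% of all genes). *CDC20*, the APC/C activator, had 130.3, 124 and 130.0 CPM in the Control libraries, 139.9, 137 and 139.6 with CTCFL-OE and 95.9, 57.1 and 50.8 with CTCFL-KD and fell in CTCFL-KD with a log2 fold change of -0.92, where even replicate 1, the highest of the group, was below all Control libraries. *SGO1*, which protects centromeric cohesion, had 13.7, 15.1 and 15.9 CPM in the Control libraries, 13.7, 10.2 and 10.4 with CTCFL-OE and 7.49, 10.1 and 9.75 with CTCFL-KD. It fell in CTCFL-KD with a log2 fold change of -0.70 and an adjusted p of 0.0144, and its call was lost without Control replicate 2 (adjusted p 0.0501) or 3 (0.0603), by the Benjamini-Hochberg-adjusted quasi-likelihood test of edgeR. *UBE2C*, the ubiquitin-conjugating enzyme of the APC/C, had 132, 124 and 130.0 CPM in Control and 125, 49.9 and 43.3 in CTCFL-KD, and *PTTG1* (securin), the inhibitor of separase, had 128, 126 and 122 in Control and 200.3, 75.1 and 61.3 in CTCFL-KD. Replicate 1 of CTCFL-KD was within the Control range in *UBE2C* and above it in *PTTG1*, and replicates 2 and 3 were far below it in both. The log2 fold changes were -0.82 and -0.16 with all libraries, with adjusted p-values of 0.0817 and 0.753, and -1.46 and -0.87 without replicate 1 of CTCFL-KD, with adjusted p-values of 4.19e-05 and 0.00059, all from the Benjamini-Hochberg-adjusted quasi-likelihood test of edgeR. Without replicate 2 or 3 of CTCFL-KD the log2 fold change of *PTTG1* was 0.06 or 0.13. With the replicate number as a block *UBE2C* passed, with a log2 fold change of -0.97 and an adjusted p of 0.0226 from the Benjamini-Hochberg-adjusted quasi-likelihood test of edgeR, and in all it passed under 7 of the 19 alternatives.

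At the kinetochore, 3 of the 4 genes fell in CTCFL-KD (against 16.8% of all genes). *CENPE*, the kinesin that carries chromosomes towards the spindle equator, had 87.8, 104 and 89.9 CPM in the Control libraries, 110.1, 104 and 95.8 with CTCFL-OE and 29.8, 41.2 and 37.7 with CTCFL-KD. With a log2 fold change of -1.37 (SE 0.18; adjusted p 0.000214 from the Benjamini-Hochberg-adjusted quasi-likelihood test of edgeR) it was the lowest of the 36 genes against Control, and its CTCFL-KD libraries did not overlap with any other. *NDC80* and *NUF2* encode subunits of the NDC80 complex, which binds spindle microtubules. *NDC80* had 58.8, 64.6 and 61.1 CPM in the Control libraries, 77.5, 60.5 and 55.2 with CTCFL-OE and 36.4, 39.9 and 33.1 with CTCFL-KD. *NUF2* had 26.5, 26.5 and 26.0 CPM in the Control libraries, 32.8, 26.0 and 24.7 with CTCFL-OE and 16.8, 17.3 and 17.3 with CTCFL-KD. Both separated CTCFL-KD from the other libraries, with log2 fold changes of -0.75 and -0.62 against Control. *CENPF*, a large protein of the outer kinetochore and the nuclear envelope, had 230.0, 287 and 271 CPM in Control and 188, 308 and 282 in CTCFL-KD, with a log2 fold change of -0.02 that did not pass.

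In the spindle and centrosome group 6 of the 9 genes fell in CTCFL-KD (against 16.8% of all genes). *AURKA*, the kinase of centrosome maturation, had 112, 119 and 114 CPM in the Control libraries, 122, 105 and 94.5 with CTCFL-OE and 55.3, 46.1 and 42.5 with CTCFL-KD. *HMMR*, which helps to orient and assemble the spindle, had 77.8, 83.8 and 80.7 CPM in the Control libraries, 89.6, 78.1 and 90.3 with CTCFL-OE and 21.3, 36.7 and 35.8 with CTCFL-KD. *CKAP2*, a protein of spindle microtubules, had 78.8, 76.5 and 79.4 CPM in the Control libraries, 82.4, 64.3 and 61.6 with CTCFL-OE and 19.6, 37.9 and 34.1 with CTCFL-KD. These 3 genes had log2 fold changes of -1.26 (SE 0.17), -1.37 (SE 0.21) and -1.35 (SE 0.24), and in each the highest CTCFL-KD library was below every Control and CTCFL-OE library. *NEK2*, a kinase that splits the centrosomes, had 32.4, 32.5 and 34.6 CPM in the Control libraries, 37.0, 26.7 and 22.1 with CTCFL-OE and 11.6, 18.4 and 16.9 with CTCFL-KD. *DLGAP5* (HURP), which stabilises spindle fibres near the chromosomes, had 146, 156 and 141 CPM in the Control libraries, 178, 136 and 130.4 with CTCFL-OE and 77.8, 88.4 and 79.6 with CTCFL-KD. *TPX2*, which activates Aurora A on the spindle, had 241, 242 and 244 CPM in the Control libraries, 269, 247 and 256 with CTCFL-OE and 162, 195 and 176 with CTCFL-KD. The fall of *TPX2* was the smallest that passed, with a log2 fold change of -0.45 and an adjusted p of 0.0484, and with the replicate number as a block its adjusted p was 0.069, in the Benjamini-Hochberg-adjusted quasi-likelihood test of edgeR. Its call was also lost without any 1 of Control replicates 1 to 3 (adjusted p 0.127, 0.129 and 0.137), CTCFL-OE replicate 2 (0.0677) or CTCFL-KD replicates 2 or 3 (0.0655 and 0.106), and with upper-quartile scaling (0.0626) or no low-count filter (0.11), by the same test.

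The other genes of the group did not pass in CTCFL-KD. *PRC1*, which bundles microtubules of the central spindle, had 4.26, 4.31 and 4.61 CPM in the Control libraries, 4.74, 5.02 and 5.84 with CTCFL-OE and 2.52, 3.33 and 3.23 with CTCFL-KD. Against Control, CTCFL-KD gave a log2 fold change of -0.52 (adjusted p 0.0616), and it passed under 4 of the 19 alternatives, such as without CTCFL-OE replicate 1 (adjusted p 0.046), by the Benjamini-Hochberg-adjusted quasi-likelihood test of edgeR. *NUSAP1*, a protein of spindle microtubules near the chromosomes, lay between 0.361 and 1.78 CPM in the 9 libraries, and *ASPM*, which focuses the spindle poles, lay between 60.2 and 159 CPM. On GENCODE 44, 81.4% of the exonic bases of *NUSAP1* and 57.6% of those of *PRC1* are shared with another gene on the same strand, so that the low counts of both are uncertain. Smaller overlaps with genes on the opposite strand covered 15.9% of the exonic bases of *FOXM1* (with *ITFG2*), 15.8% of *SGO1* (with *SGO1-AS1*) and 11.6% of *PLK1*, and whether the counting used strand is not given in the sources used here.

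Of the genes of chromosomes and cytokinesis, 3 of 6 fell in CTCFL-KD (against 16.8% of all genes). *TOP2A*, topoisomerase II alpha, which untangles sister chromatids, had 253, 293 and 270.3 CPM in the Control libraries, 342, 273 and 262 with CTCFL-OE and 58.6, 147 and 141 with CTCFL-KD. *ECT2*, the exchange factor that activates RhoA at the division plane, had 140.5, 140.5 and 144 CPM in the Control libraries, 149, 112 and 104 with CTCFL-OE and 33.5, 81.2 and 78.2 with CTCFL-KD. *ANLN* (anillin), a scaffold of the contractile ring, had 211, 219 and 224 CPM in the Control libraries, 224, 223 and 356 with CTCFL-OE and 62.9, 143 and 137 with CTCFL-KD. In these 3 genes all CTCFL-KD libraries were below Control, and replicate 1 was far below replicates 2 and 3. Without replicate 1 of CTCFL-KD the log2 fold changes were -0.91, -0.83 and -0.64, against -1.23, -1.14 and -0.93 with all libraries, and all 3 still passed. The call of *ANLN* was lost without Control replicate 1, 2 or 3, with adjusted p-values of 0.0678, 0.0765 and 0.0817, and with only the 2 groups in the fit (0.0529), from the Benjamini-Hochberg-adjusted quasi-likelihood test of edgeR. *MKI67*, the gene of the proliferation marker Ki-67, which coats mitotic chromosomes, had 306, 403 and 358 CPM in the Control libraries, 482, 573 and 563 with CTCFL-OE and 188, 327 and 259 with CTCFL-KD. The CTCFL-OE libraries of *MKI67* were all above Control, and CTCFL-KD overlapped with Control, with log2 fold changes of 0.60 and -0.46 that did not pass. With the offset for transcript length and GC content *MKI67* fell in CTCFL-KD, with a log2 fold change of -0.65 and an adjusted p of 0.00467 from the Benjamini-Hochberg-adjusted quasi-likelihood test of edgeR. The adjusted p was 0.0059 with the replicate block added and 0.00255 with the offset and without CTCFL-KD replicate 1, both from the Benjamini-Hochberg-adjusted quasi-likelihood test of edgeR. *AURKB* and *BIRC5* (survivin), both of the chromosomal passenger complex, had 43.8, 23.7 and 17.3 CPM and 176, 99.2 and 93.4 CPM in CTCFL-KD, against 32.8, 32.2 and 33.5 and 111, 111 and 119 in Control. In both genes replicate 1 of CTCFL-KD was above all Control libraries and the other two below them. Without it *AURKB* fell, with a log2 fold change of -0.68 and an adjusted p of 0.00243 from the Benjamini-Hochberg-adjusted quasi-likelihood test of edgeR.

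**Figure D3:**
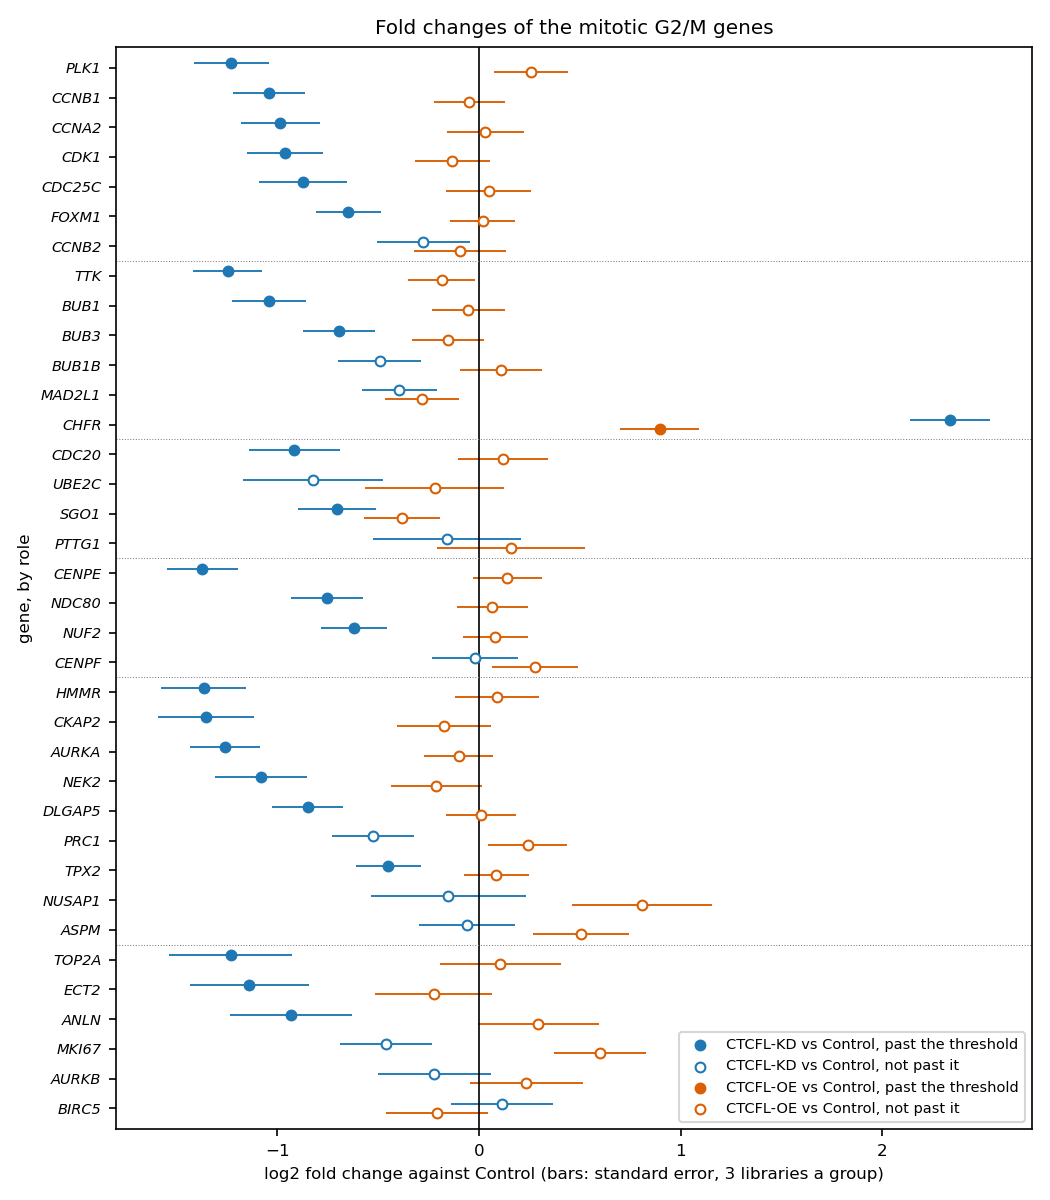
Log2 fold change against Control of the 36 mitotic genes (rows, by role, dotted lines between roles). Bars are the standard error derived from the F statistic of the test, with 3 libraries a group. Filled points passed the threshold (adjusted p under 0.05 in CTCFL-KD in blue, under 0.1 in CTCFL-OE in orange): 24 blue points are filled, and in CTCFL-OE *CHFR* alone.

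The deviation of replicate 1 of CTCFL-KD had a trend with transcript length, and so had that of replicate 1 of Control. Over all genes with a mean log2 CPM above 1 and a known length, the log2 ratio to the Control mean was correlated with length. The Spearman correlation was -0.37 in replicate 1 of CTCFL-KD and -0.32 in that of Control. In the other 7 libraries it was between -0.05 and 0.22. These values are not limited to the 36 genes and describe libraries whose genes share depth and scaling. For each of the 36 genes, the CPM in replicate 1 of CTCFL-KD was divided by the mean of replicates 2 and 3. The median log2 ratio was 0.34 for the 11 genes whose longest GENCODE transcript was under 2300 bases and -0.52 for the 12 genes over 4000 bases. Over the 36 genes the Spearman correlation of this ratio with length was -0.62, as a description of this library, since all points share its depth and scaling. *PTTG1* and *UBE2C* were at the high end, with log2 ratios of 1.55 and 1.42, and *TOP2A* and *NUSAP1* at the low end, with -1.30 and -1.26. The trend had exceptions on both sides, such as *CDK1* (1948 bases) with -0.29 and *NEK2* (2134 bases) with -0.60, and *BUB3* (7703 bases) with 0.28 and *PLK1* (4135 bases) with 0.40. The TMM factor of this library was 0.775, below the range of 0.945 to 1.088 in the other 8. With an offset for length and GC content in every library, 26 genes fell and *CHFR* rose, while 44.3% of all genes changed. In that fit the calls gained were those of *UBE2C*, *PRC1*, *AURKB* and *MKI67*, and that of *BUB3* was lost. With the offset and with replicate 1 of CTCFL-KD also left out, 30 fell and *CHFR* rose, while 51.2% of all genes changed.

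**Figure D4:**
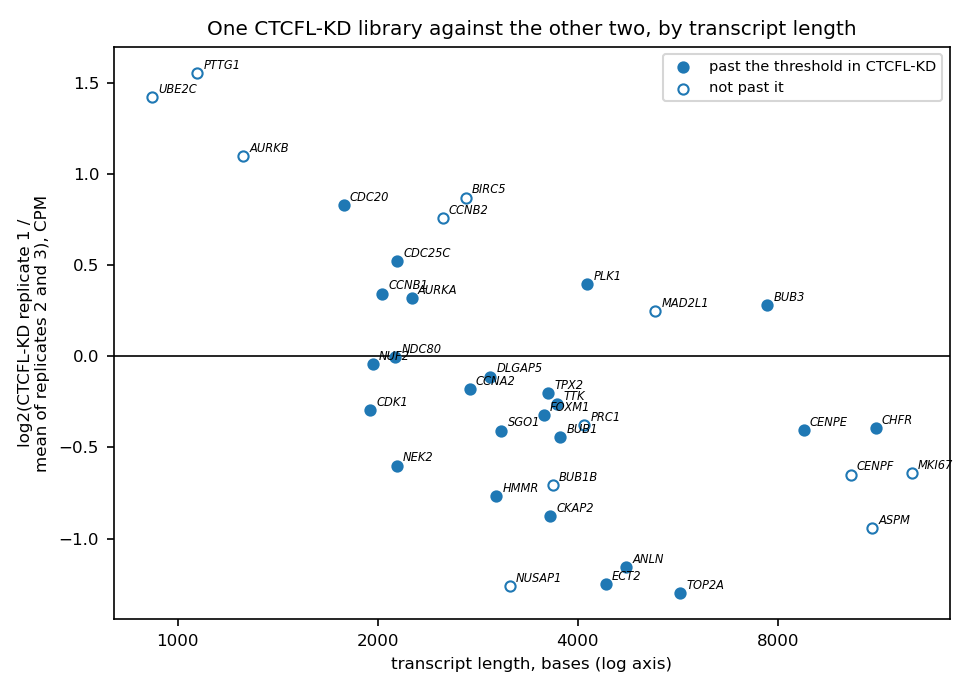
Log2 of the CPM in CTCFL-KD replicate 1 over the mean of replicates 2 and 3 (y axis) against the longest transcript of each of the 36 genes in bases (x axis, log scale). Filled points passed the test in CTCFL-KD, and open points did not. The points trend downwards (Spearman correlation -0.62) from *PTTG1* (1.55) to *TOP2A* (-1.30), with exceptions such as the short *NEK2* (-0.60) below 0 and the long *PLK1* (0.40) above.

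In CTCFL-OE 1 of the 36 mitotic genes, *CHFR*, passed, where 1.99% of all genes rose, 1.16% fell and 3.15% changed in either direction at an adjusted p under 0.1. DESeq2 also called *CHFR* alone. The median log2 fold change of the 36 genes was 0.06, against -0.01 for all genes tested, and 3 genes (*CHFR*, *MKI67* and *NUSAP1*) had an unadjusted p under 0.05. For 10 genes all CTCFL-OE libraries lay above Control and for 1 (*SGO1*) below, where 16.3% and 20.8% of all genes did so. Besides *CHFR* and *MKI67*, *ASPM* had 133, 140.2 and 159 CPM in CTCFL-OE against 95.2, 104 and 105 in Control, a log2 fold change of 0.50 that did not pass (adjusted p 0.298 from the Benjamini-Hochberg-adjusted quasi-likelihood test of edgeR). Without replicate 1 of CTCFL-OE, whose summed CPM of 4711 was the highest of the 9 libraries, the median was -0.08, and *CHFR* rose and *MAD2L1* fell (log2 fold change -0.49), while 15.1% of all genes changed. Without replicate 1 of CTCFL-KD, which takes part in the shared estimate of spread, 4 genes rose (*CHFR*, *MKI67*, *ASPM* and *NUSAP1*) and *SGO1* fell in CTCFL-OE, while 27.4% of all genes changed.

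Whether the treated groups differed was tested by the direct comparison of CTCFL-KD with CTCFL-OE, which uses the same CTCFL-KD libraries as before. Here 24 of the 36 genes were lower in CTCFL-KD and *CHFR* was higher, where 11.5% of all genes were lower, 15.3% higher and 26.8% changed in either direction at an adjusted p under 0.05. The median log2 difference was -0.84, against 0.04 for all genes tested. For 28 genes all CTCFL-KD libraries lay below all CTCFL-OE libraries, where 19.5% of all genes did so. *CENPE*, *PLK1* and *HMMR* had the lowest values, with log2 differences of -1.51 (SE 0.18), -1.48 (SE 0.19) and -1.46 (SE 0.21). *MKI67* and *PRC1* passed here and not against Control, with log2 differences of -1.06 and -0.77 and adjusted p-values of 0.00664 and 0.0177, and *SGO1* passed against Control and not here (adjusted p 0.237), all from the Benjamini-Hochberg-adjusted quasi-likelihood test of edgeR. The calls nearest the threshold were those of *BUB3*, *ECT2* and *TPX2*, with adjusted p-values of 0.0446, 0.0417 and 0.0318 from the Benjamini-Hochberg-adjusted quasi-likelihood test of edgeR. Each of these was lost when any 1 Control library was left out, with adjusted p-values between 0.0627 and 0.0814, and *ECT2* stood at the threshold, with 0.05, under the replicate block in the Benjamini-Hochberg-adjusted quasi-likelihood test of edgeR. *ECT2* was also lost without CTCFL-OE replicate 2 or 3 (0.0799 and 0.0534), *TPX2* without CTCFL-OE replicate 2 or CTCFL-KD replicate 3 (0.0707 and 0.0794), and *BUB3* without CTCFL-OE replicate 2 or CTCFL-KD replicate 2 or 3 (0.0797, 0.0949 and 0.119), all as adjusted p-values from the Benjamini-Hochberg-adjusted quasi-likelihood test of edgeR. With the length and GC offset the log2 difference of *BUB3* was -0.34, against -0.54 without it, and its adjusted p was 0.318, or 0.139 with the replicate block added, from the Benjamini-Hochberg-adjusted quasi-likelihood test of edgeR. With no low-count filter *BUB3* and *TPX2* did not pass either (adjusted p 0.0537 and 0.0657 from the Benjamini-Hochberg-adjusted quasi-likelihood test of edgeR). The length and GC offset also gained calls, those of *ASPM*, *AURKB*, *BUB1B*, *NUSAP1*, *PTTG1* and *UBE2C*. Their adjusted p-values were 0.0191, 0.0017, 0.0136, 0.0449, 0.0392 and 0.003 from the same test. Without replicate 1 of CTCFL-OE *BUB3*, *ECT2* and *NEK2* did not pass (adjusted p 0.105, 0.133 and 0.0577 from the same test). When CTCFL-KD replicate 1 was left out, 29 genes were lower and 1 higher, while 39.7% of all genes changed, and the calls gained were those of *CCNB2*, *BUB1B*, *UBE2C*, *PTTG1* and *AURKB*. Without replicate 2 of CTCFL-KD *BUB1B* and *NUSAP1* passed (adjusted p 0.0304 and 0.0308 from the same test), and *BUB1B* passed under 10 of the 19 alternatives in all. With only the 6 libraries of these groups in the fit, 16 genes were lower and 1 higher, while 15.5% of all genes changed, and the calls lost were those of *ANLN*, *BUB3*, *ECT2*, *FOXM1*, *NEK2*, *NUF2*, *PRC1* and *TPX2*.

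Genes that work with the 36 were described from lists of their own, whose counts in CTCFL-KD stand against the 16.8% of all genes that fell and the 21.4% that rose. Among 9 tested partners of the passenger complex and the central spindle 5 fell in CTCFL-KD, the lowest being *KIF11*, the kinesin that separates the spindle poles, with 151, 156 and 157 CPM in the Control libraries, 169.9, 122 and 115 with CTCFL-OE and 57.8, 84.7 and 77.3 with CTCFL-KD, and *KIF23*, a motor of the central spindle, with 97.7, 102 and 97.5 CPM in the Control libraries, 118, 113 and 108 with CTCFL-OE and 40.5, 65.4 and 54.0 with CTCFL-KD. Of 8 condensin genes, which compact chromosomes, 4 fell, and 4 of 13 other kinetochore genes did so, with *ZWILCH* (-1.24) and *CENPA*, the centromeric histone H3 (-0.94), at the lowest log2 fold changes. Of 8 regulators of CDK1, 3 fell, the lowest being *BORA*, which helps Aurora A to activate PLK1 (log2 fold change -1.44), and *WEE1*, which inhibits CDK1 (-1.02), so that the list held a falling activator and a falling inhibitor of mitotic entry. Of 17 further APC/C genes 3 fell (17.6%, near the share of all genes) and 1, *ANAPC11*, rose, with 59.6, 56.6 and 54.5 CPM in Control and 384, 128 and 141 in CTCFL-KD. Of the 12 genes of the MuvB and DREAM complexes, which bind CHR promoters, only *TFDP1* fell (-0.60), a share of 8.33% that is below that of all genes. *MYBL2*, the B-MYB partner of MuvB, is in that list and did not pass. In all these lists 0 genes passed in CTCFL-OE by edgeR, although 3 had an unadjusted p under 0.05 and DESeq2 called 1 (*NSL1*, of the kinetochore list, named after its value was seen) as lower. When replicate 1 of CTCFL-KD was left out, the falling genes in CTCFL-KD were 7 of the 9 passenger and spindle partners, 7 of the 8 condensin genes, 8 of the 13 kinetochore genes, 7 of the 8 regulators of CDK1, 12 of the 17 APC/C genes and 4 of the 12 MuvB and DREAM genes, where 23.7% of all genes fell, and *ANAPC11* still rose. In CTCFL-OE the same fit without that library called 8 of the 67 tested genes of these lists, 2 as higher and 6 as lower, while 27.4% of all genes changed and 13.4% were lower.

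Some genes of earlier phases of the cell cycle fell in CTCFL-KD as well. Of 20 S phase genes 10 fell (against 16.8% of all genes), the lowest being *GINS4*, of the replicative helicase, with 34.5, 37.4 and 36.7 CPM in the Control libraries, 29.4, 27.1 and 24.3 with CTCFL-OE and 9.29, 20.4 and 19.7 with CTCFL-KD, and *CDC6*, which loads the MCM helicase, with 66.6, 62.6 and 69.3 CPM in the Control libraries, 54.0, 48.7 and 53.0 with CTCFL-OE and 39.3, 38.8 and 32.0 with CTCFL-KD. In the comparison of CTCFL-KD with CTCFL-OE 2 of the 20 were lower by edgeR, where 11.5% of all genes were by the same fit. By DESeq2 9 of the 20 were lower. The share of all genes that DESeq2 called is not given here, so its counts have no share to stand against. In CTCFL-OE 0 passed at an adjusted p under 0.1 by edgeR, with 4 at an unadjusted p under 0.05 and 1 called lower by DESeq2. The S phase counts moved without replicate 1 of CTCFL-KD, to 16 lower in CTCFL-KD than in Control, 13 lower in CTCFL-KD than in CTCFL-OE and 9 lower in CTCFL-OE than in Control, where 23.7%, 18.7% and 13.4% of all genes were lower. Of 7 tested G1 cyclins and CDKs 4 fell in CTCFL-KD (57.1%, against the same 16.8%). *CCND1*, the gene of cyclin D1, had 487, 461 and 503 CPM in the Control libraries, 305, 276 and 281 with CTCFL-OE and 91.0, 111 and 96.8 with CTCFL-KD, and its groups did not overlap. It fell in both treated groups, with log2 fold changes of -2.28 in CTCFL-KD and -0.75 in CTCFL-OE and adjusted p-values of 9.27e-06 and 0.0633 from the Benjamini-Hochberg-adjusted quasi-likelihood test of edgeR. With CTCFL-KD replicate 1 left out, 5 of the 7 G1 cyclins and CDKs fell, against 23.7% of all genes. In CTCFL-OE 1 of these 7 genes fell, against 1.16% of all genes, and 3 did so without that library, against 13.4% of all genes. Among the 7 CDK inhibitors no gene rose in either comparison with Control, 1 fell in CTCFL-KD and 2 fell in CTCFL-OE, where 16.8% and 1.16% of all genes fell. Without CTCFL-KD replicate 1 these counts were 3 and 4 of the 7, against 23.7% and 13.4% of all genes, and *CDKN1B* (p27) rose in CTCFL-KD. *CDKN2B* (p15) had 118, 116 and 129 CPM in the Control libraries, 43.9, 41.9 and 48.0 with CTCFL-OE and 12.5, 20.5 and 21.5 with CTCFL-KD and fell in both, with no overlap between the groups. *CDKN1A* (p21) had 4.26, 3.23 and 4.41 CPM in the Control libraries, 2.37, 1.62 and 2.33 with CTCFL-OE and 5.41, 4.46 and 4.93 with CTCFL-KD and passed in CTCFL-OE only, with a log2 fold change of -0.90 and an adjusted p of 0.0925 from the Benjamini-Hochberg-adjusted quasi-likelihood test of edgeR, and the direct comparison of CTCFL-KD with CTCFL-OE gave 1.22 with an adjusted p of 0.00353.

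**Figure D5:**
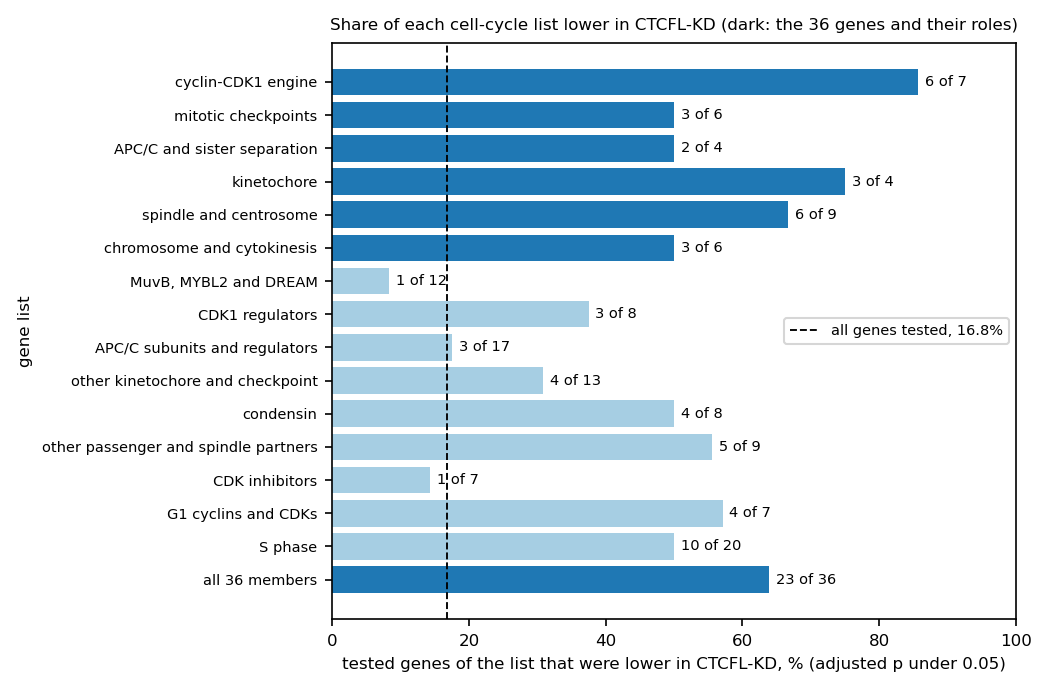
Share of the tested genes of each cell-cycle list that were lower in CTCFL-KD than in Control at an adjusted p under 0.05 (x axis, %), with the count beside each bar. Dark bars are the 36 mitotic genes (23 of 36) and their roles, light bars are the other lists, and the dashed line is the 16.8% of all genes tested.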

How the data were processed

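RNA of 9 OVCAR3 libraries was prepared with a stranded mRNA kit and read as pairs. Per the study's methods the authors trimmed reads with Trimmomatic, aligned these with STAR (genome GRCh38) and obtained gene counts with featureCounts. The submitters' processing notes also name kallisto. The deposited values are raw counts per gene, with no normalization. The strand setting and the annotation release are not given in the sources used here, and gene names, positions and lengths came from GENCODE 44, which named 60463 of the 60660 identifiers.

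Counts were filtered with filterByExpr, scaled by TMM and fitted with edgeR 4.0.16 (robust quasi-likelihood, R 4.3.3) on all 9 libraries with the group as the only term, which left 17794 genes. P-values were adjusted by Benjamini-Hochberg over all of them. Rose, fell and passed mean an adjusted p under 0.05, or under 0.1 for CTCFL-OE vs Control, after the adjusted p thresholds of the study. The study also required a change of over 2-fold, which was not asked for here. P-values measure the spread between 3 libraries a group. The SE of a log2 fold change was its absolute value over the square root of the F statistic of the quasi-likelihood test. Alternatives were DESeq2 1.42.0 (Wald test), other scalings and filters, fits of the compared groups only, a replicate block, an offset for transcript length and GC content, and leaving out each library; leaving out CTCFL-KD replicate 1 together with the offset was added after the data were seen. The fit was tested on simulated counts. The members and lists were chosen with earlier results of these data known. Values per library are given for members past a threshold with a log2 fold change beyond 0.5 and for *CHFR*, and of each other list at most the 2 highest and the 2 lowest genes past the threshold are named. The result of 1 marker gene is not reported here.

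Replicate numbers are shared between groups in the labels. Same-numbered Control and CTCFL-KD libraries deviated together from their group means, with correlations of 0.322, 0.184 and 0.219 over 13537 genes, and for Control and CTCFL-OE these were -0.0353, 0.219 and -0.0517, so that the numbers were read as pairs in the first comparison only.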

Additional observations from a re-analysis of the deposited data

How the results depend on the processing

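The number of genes past the threshold ranged from 21 to 31 in CTCFL-KD vs Control and from 17 to 31 in CTCFL-KD vs CTCFL-OE over the 19 alternatives, while the share of all genes called ranged from 21.2% to 51.2% and from 15.5% to 41.4%, and *CHFR* was higher in CTCFL-KD in every one. In CTCFL-OE vs Control the count of 1 was 5 with only the 2 groups in the fit (20.2% of all genes called), 3 with the length and GC offset (10%), 3 with the replicate block added to it (9.57%), 7 with that offset and without CTCFL-KD replicate 1 (27.1%), and 0 to 5 when 1 library was left out (0.24% to 27.4%). The median of the 36 log2 fold changes in CTCFL-KD vs Control was -0.88 with no low-count filter, -0.67 with the length and GC offset, -0.67 with the replicate block added and -0.65 without CTCFL-KD replicate 1 and with the offset, and it lay between -0.81 and -0.71 when 1 library was left out. In CTCFL-KD vs CTCFL-OE it lay between -0.94 and -0.69 when 1 library was left out. With the replicate block 24 genes passed in CTCFL-KD vs Control, 24 in CTCFL-KD vs CTCFL-OE and 1 in CTCFL-OE vs Control, and beside the calls given for *UBE2C*, *TPX2* and *ECT2* the block changed no other call. The causes were not tested. In CTCFL-KD vs Control these log2 fold changes turned sign, with the value from all libraries in parentheses. *PTTG1* (-0.16) was at -0.87 to 0.13 when 1 library was left out. *CENPF* (-0.019) was at 0.0043 with upper-quartile scaling, 0.14 with the offset, 0.14 with block and offset, 0.068 with the offset and without CTCFL-KD replicate 1 and -0.15 to 0.17 when 1 library was left out. *NUSAP1* (-0.15) was at 0.012 with the offset and without CTCFL-KD replicate 1 and -0.57 to 0.095 when 1 library was left out. *ASPM* (-0.062) was at 0.16 with the offset, 0.16 with block and offset, 0.16 with the offset and without CTCFL-KD replicate 1 and -0.21 to 0.19 when 1 library was left out. *AURKB* (-0.22) was at -0.68 to 0.031 when 1 library was left out. *BIRC5* (0.11) was at -0.18 with the offset, -0.21 with block and offset, -0.36 with the offset and without CTCFL-KD replicate 1 and -0.23 to 0.27 when 1 library was left out. In CTCFL-OE vs Control these log2 fold changes turned sign, with the value from all libraries in parentheses. *CDK1* (-0.13) was at 0.071 with the offset, 0.071 with block and offset and 0.067 with the offset and without CTCFL-KD replicate 1. *CCNA2* (0.031) was at -0.18 to 0.12 when 1 library was left out. *CCNB1* (-0.049) was at 0.0044 with upper-quartile scaling, 0.085 with the offset, 0.082 with block and offset and 0.082 with the offset and without CTCFL-KD replicate 1. *CDC25C* (0.048) was at -0.14 to 0.13 when 1 library was left out. *FOXM1* (0.019) was at -0.062 with the offset, -0.060 with block and offset, -0.062 with the offset and without CTCFL-KD replicate 1 and -0.053 to 0.049 when 1 library was left out. *BUB1* (-0.053) was at 0.00063 with upper-quartile scaling, 0.034 with the offset, 0.031 with block and offset, 0.035 with the offset and without CTCFL-KD replicate 1 and -0.17 to 0.029 when 1 library was left out. *NDC80* (0.066) was at -0.096 to 0.16 when 1 library was left out. *NUF2* (0.080) was at -0.064 to 0.15 when 1 library was left out. *DLGAP5* (0.0082) was at -0.15 to 0.087 when 1 library was left out. *TOP2A* (0.10) was at -0.031 to 0.17 when 1 library was left out. In CTCFL-KD vs CTCFL-OE these log2 fold changes turned sign, with the value from all libraries in parentheses. *MAD2L1* (-0.11) was at 0.13 with the offset, 0.10 with block and offset and -0.22 to 0.081 when 1 library was left out. *BIRC5* (0.32) was at -0.11 with the offset and without CTCFL-KD replicate 1 and -0.024 to 0.51 when 1 library was left out. None of these genes passed with all libraries in the comparison named.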
